A study of Mus musculus with 6 samples.

Results

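AMPA receptors are the glutamate-gated channels that carry most fast excitatory transmission between cortical neurons. Each receptor is a complex of pore-forming subunits, encoded by Gria1 to Gria4, and of auxiliary proteins that set its export, its place at the synapse and its gating. The auxiliary proteins measured here are the transmembrane AMPA receptor regulatory proteins (TARPs) encoded by Cacng2, Cacng3 and Cacng8, the cornichons encoded by Cnih2 and Cnih3, and the CKAMP44 protein encoded by Shisa9. Members were all probe sets of the array annotated with exactly 1 gene symbol that is among these 10 genes. The rule found 21 probe sets for the 10 genes, of 45101 probe sets on the array, and each gene had at least 1. A probe set is a group of short oligonucleotides whose signals are summarised into 1 value. Of the 21, 18 had a group mean intensity of at least 50 in 1 or both groups and were tested, and 3 were dimmer.

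RNA from mouse cortex was compared between 3 samples bound to tagged ribosomes and 3 samples of unbound RNA on 6 Affymetrix arrays. All samples came from the transgenic line ES691, in which a bacterial artificial chromosome (BAC) with S100a10 regulatory sequence drives the tag, on a C57BL/6 background reached by 3 to 5 generations of backcrossing from FVB, with no treatment. Translating ribosome affinity purification (TRAP) pulls down the tagged ribosomes with the mRNA they carry. The unbound group is cortex RNA, called whole cortex input in the sample titles and unbound in the descriptions. It came from animals that carry the same transgene. The series text states that the line also labels some cells that are not neurons, so TRAP values cover every labelled cell. Age, sex and the number of animals were not given in the sources used here, and a p-value here reflects only how far these 6 samples vary, part of which can be technical. The comparison is aimed at S100a10-expressing pyramidal cells, but it contrasts RNA of all labelled cells with unbound cortex RNA. Summed pyramidal markers overlapped between groups on the deposited scale, and meningeal fibroblast markers were higher in TRAP RNA, as given below.

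S100a10, the driver, had an intensity of 14128 ± 1095 (SD, n = 3) in TRAP RNA and 2430 ± 451 (SD, n = 3) in unbound RNA, and its log2 difference (TRAP minus unbound) was 2.55 (SE 0.15, limma adjusted p = 8.4e-05). Across the 22591 tested probe sets 68.3% were called at an adjusted p under 0.05, 47.7% lower and 20.6% higher in TRAP RNA, and the median log2 difference was -0.25, so counts below are to be read against that shift. With each array centred on its tested probe sets the median was 0.01 and 50.5% of calls were higher, against 30.2% as deposited. Between 17.9% and 21.6% of tested probe sets held exactly the same value on a pair of arrays of one group, and 0% on a pair from different groups, so spreads within a group can be too small. Medians over all non-control probe sets were 31.3 to 31.6 on the TRAP arrays and 42.3 to 43.0 on the unbound arrays. Whether the groups were normalised together was not given. A group difference in processing therefore cannot be told apart from one in RNA. A value is an intensity of RNA in equal amounts, so fewer cells of a type and less RNA per cell cannot be told apart.

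The main subunits Gria1, Gria2 and Gria3 were lower in TRAP RNA on all 7 of their probe sets, by 2.03 to 5.96-fold. Gria4 was lower on 1 probe set and higher without a call on another. Among auxiliary genes Cnih2 and Shisa9 were lower, Cnih3 was the single member called higher, and the 3 TARP genes differed by 1.54-fold or less. In all, 12 of the 18 tested probe sets were called lower (47.7% of all probe sets), 1 was called higher (20.6% of all) and 5 were not called. On the same 12 every TRAP array was below every unbound array (51.8% of all probe sets), and on 2 every TRAP array was above (23.2%). Of the 18, 8 were called and at least 2-fold lower, a size that 16.6% of all probe sets reached, and 0 were at least 2-fold higher (6.17% of all). The median log2 difference of the 18 was -0.79. After centring on the tested probe sets 10 of the 18 were lower and 2 higher, and after centring on all probe sets 9 and 3. By gene, read from the probe set with the highest mean, 8 of 10 were called (68.8% of 12070 genes), 7 of them lower (45.6%) and 1 higher (23.2%), and 2 were not called.

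**Figure D1:**
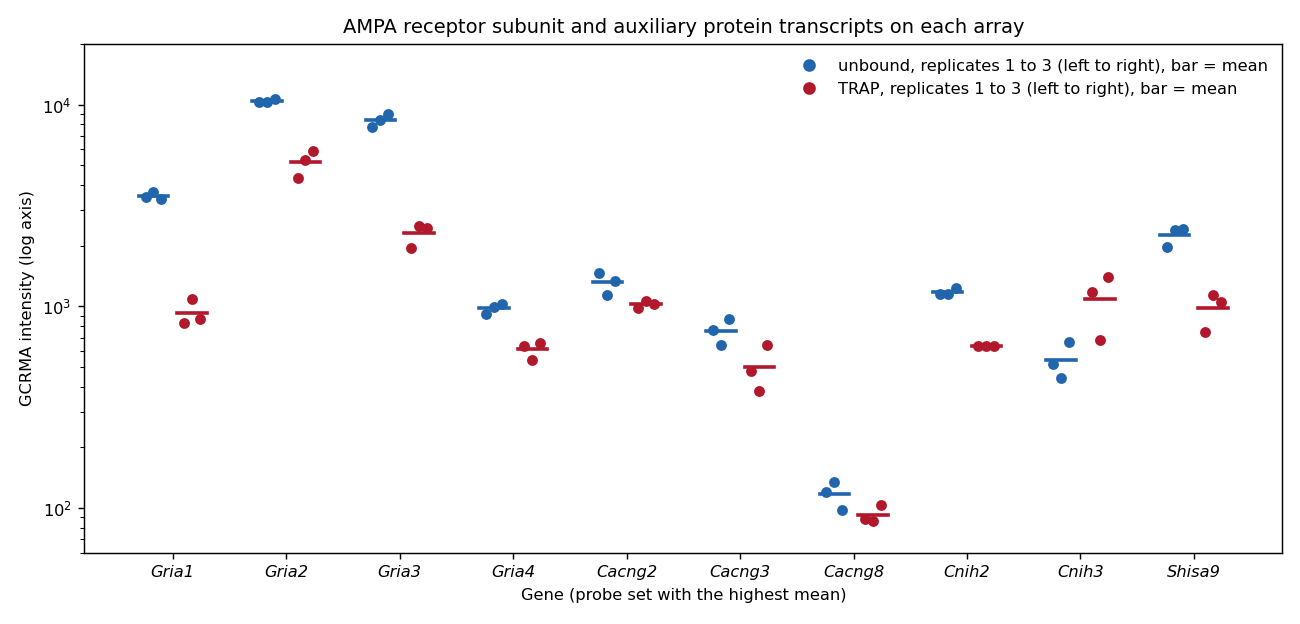
GCRMA intensity (log axis) of the probe set with the highest mean for each of the 10 genes, with 1 point per array and a bar at the mean of 3. Gria1, Gria2 and Gria3 show TRAP points below all unbound points, Cnih3 shows TRAP points above them, and Cacng3 and Cacng8 overlap.

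Gria1 encodes the subunit GluA1, known for its regulated delivery to synapses during potentiation. Its brightest probe set measured 823, 1091 and 867 on TRAP replicates 1, 2 and 3 and 3483, 3688 and 3408 on unbound replicates 1, 2 and 3. The groups were far apart, and the highest TRAP array stayed below the lowest unbound array. The log2 difference was -1.94 (SE 0.12, adjusted p = 1.0e-04), or 3.83-fold lower. A second, dimmer probe set gave 556, 645 and 812 in TRAP RNA against 1886, 2009 and 2352 in unbound RNA, 3.13-fold lower (adjusted p = 6.8e-04). Both probe sets also passed limma's test against a 2-fold change (adjusted p = 0.0031 and 0.046), as did 9.49% of all probe sets in the lower direction. In the higher direction 3.82% of all probe sets passed it and 0 members did.

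Gria2 encodes GluA2, the subunit whose edited pore keeps calcium out of the channel. Its brightest probe set measured 4321, 5329 and 5912 on the TRAP arrays and 10285, 10285 and 10711 on the unbound arrays. Replicates 1 and 2 of the unbound group held the same value, and the groups did not overlap. The difference was 2.03-fold (log2 -1.02, SE 0.12, adjusted p = 0.0013). Its second probe set gave 1808, 2185 and 1911 against 4494, 6335 and 5460, a 2.74-fold difference (adjusted p = 7.0e-04). The third probe set was much dimmer, at 52.6, 52.6 and 51.1 in TRAP RNA, close to the limit of 50, against 413, 282 and 256 in unbound RNA. It was 5.96-fold lower (adjusted p = 2.1e-04), and it was the one Gria2 probe set that passed the test against a 2-fold change (adjusted p = 0.0027). The 3 probe sets of Gria2 shared a direction and differed in size, and which part of the transcript each one reads was not analysed here.

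Gria3 encodes GluA3, which pairs mainly with GluA2. Its brighter probe set measured 1953, 2505 and 2439 on the TRAP arrays against 7760, 8364 and 9015 on the unbound arrays, with no overlap. It was 3.66-fold lower (log2 -1.87, SE 0.12, adjusted p = 1.2e-04). The dimmer probe set gave 359, 321 and 378 against 1111, 938 and 1224, or 3.08-fold lower (adjusted p = 2.1e-04). Both passed the test against a 2-fold change (adjusted p = 0.0042 and 0.016).

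Gria4 encodes GluA4, a subunit with fast kinetics that in adult cortex is prominent in parvalbumin interneurons. Its probe sets went different ways. The brighter of the tested pair measured 636, 540 and 657 in TRAP RNA and 914, 990 and 1033 in unbound RNA, 1.61-fold lower (log2 -0.68, SE 0.09, adjusted p = 0.0020). The dimmer one measured 521, 329 and 788 in TRAP RNA and 329, 294 and 326 in unbound RNA. Its TRAP arrays lay above the unbound arrays, with TRAP replicate 2 above the highest unbound array by less than 1 unit, and spread 2.39-fold among themselves. The difference was not called (log2 0.70, SE 0.33, 95% interval -0.15 to 1.55, adjusted p = 0.12). After centring on the tested probe sets the first stayed lower (log2 -0.42, adjusted p = 0.011) and the second was called higher (log2 0.96, adjusted p = 0.032), and without TRAP replicate 2 the second was called as well (log2 1.02, adjusted p = 0.017). With each array centred on all its probe sets the first was no longer called (log2 -0.25, adjusted p = 0.059). The third probe set was dim, with 19.6, 13 and 20.0 against 12.3 on each unbound array, and was not tested. Opposite calls within one gene, on the deposited scale, were found for 10.1% of the 5152 genes with more than 1 tested probe set.

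**Figure D2:**
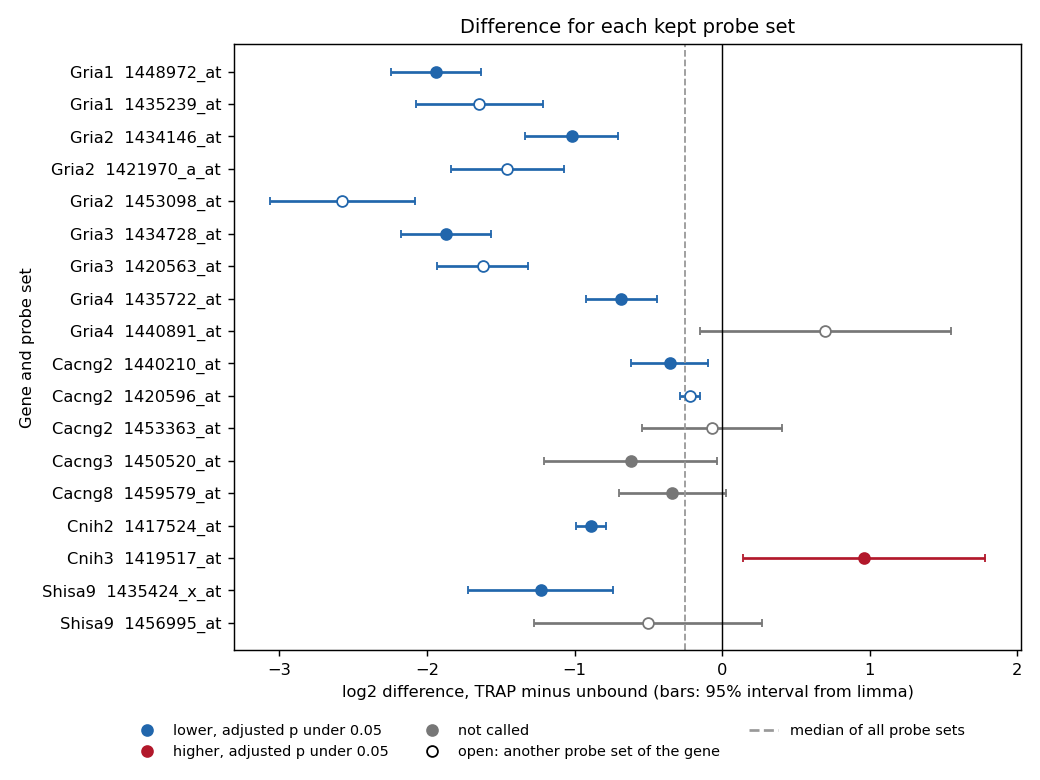
log2 difference (TRAP minus unbound) with its 95% interval from limma for the 18 tested probe sets. Filled points are the probe set with the highest mean of each gene and open points the others. The 7 probe sets of Gria1, Gria2 and Gria3 lie left of -1, the median of all probe sets (-0.25) is dashed, and the Cnih3 interval lies above 0.

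The TARP genes Cacng2, Cacng3 and Cacng8 differed by 1.54-fold or less on their brightest probe sets, with a wide interval for Cacng3 given below. TARPs bind AMPA receptors and tether them to scaffold proteins of the postsynaptic density. Cacng2, which encodes stargazin (gamma-2), measured 983, 1064 and 1022 on TRAP arrays and 1470, 1145 and 1330 on unbound arrays with its brightest probe set. The groups did not overlap and the difference was 1.28-fold (log2 -0.36, SE 0.10, adjusted p = 0.027). This call was lost with the replicate number as a block (adjusted p = 0.069) and without any single array other than unbound replicate 2 (adjusted p from 0.051 to 0.086), and with arrays centred on all probe sets the value turned to 0.08 (adjusted p = 0.49). Without unbound replicate 2 it was called (log2 -0.45, adjusted p = 0.0067). The second Cacng2 probe set gave 465, 465 and 483 against 550, 550 and 545, 1.16-fold lower (adjusted p = 0.0014) with repeated values in both groups. That direction also turned under centring on all probe sets (log2 0.22, adjusted p = 0.0038) and under quantile normalisation (log2 0.02). The dimmest Cacng2 probe set overlapped between groups, with 211, 148 and 222 against 227, 188 and 188 (log2 -0.07, adjusted p = 0.76).

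Cacng3 encodes gamma-3, a cortical TARP. Its values were 479, 379 and 641 in TRAP RNA and 764, 641 and 864 in unbound RNA. TRAP replicate 3 equalled the lowest unbound array to within 1 unit, and the groups overlapped. The log2 difference was -0.62 (SE 0.23, 95% interval -1.21 to -0.03), not called at adjusted p = 0.060. Within each replicate number TRAP was lower, by 0.67, 0.76 and 0.43 on the log2 scale, and with replicate number as a block it was called (log2 -0.62, SE 0.08, adjusted p = 0.0098). It was also called without TRAP replicate 3 (log2 -0.82, adjusted p = 0.023).

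Cacng8 encodes gamma-8, the TARP most associated with the hippocampus. Its brighter probe set was near the level limit, at 88.3, 85.9 and 104 in TRAP RNA against 120, 134 and 98.3 in unbound RNA. Overlap came from TRAP replicate 3 and unbound replicate 3. The log2 difference of -0.34 (SE 0.14, 95% interval -0.70 to 0.03) was not called (adjusted p = 0.086), and it was called only when unbound replicate 3 was left out (log2 -0.46, adjusted p = 0.029). With arrays centred on all probe sets it turned to 0.10 (adjusted p = 0.54). The other Cacng8 probe set stayed between 2.60 and 3.00 on all arrays and was not tested.

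The cornichon genes gave opposite differences. Cornichons are cargo export factors that also stay with AMPA receptors at the surface and slow their closing. Cnih2 measured 637 on each of the 3 TRAP arrays and 1145, 1153 and 1240 on the unbound arrays. It was 1.85-fold lower (log2 -0.89, adjusted p = 3.3e-05). With identical TRAP values, its SE of 0.04 rests on the unbound arrays and on the spread limma shares across probe sets, and may be too small.

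Cnih3 measured 1181, 685 and 1392 in TRAP RNA and 516, 442 and 667 in unbound RNA. Every TRAP array was above every unbound array, although TRAP replicate 2 was only slightly above unbound replicate 3. The difference was 1.95-fold higher (log2 0.96, SE 0.32, 95% interval 0.14 to 1.78, adjusted p = 0.044). Of all probe sets 93.4% had a lower log2 difference. Leaving out any one array other than TRAP replicate 2 ended the call (adjusted p from 0.060 to 0.13), and without TRAP replicate 2 the log2 difference was 1.26 (adjusted p = 0.010). Within replicate numbers 1, 2 and 3 the log2 difference was 1.19, 0.63 and 1.06. With replicate number as a block the adjusted p was 0.011 (SE 0.14), and centred on the tested probe sets the difference was 1.23 (adjusted p = 0.011).

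Upstream sequence is shown for both cornichon genes, since their transcripts differed in direction, and for Gria2, a subunit lower on every probe set. RefSeq promoter windows (GRCm38.p6) matched 7 of the 10 members, and the 250 bases before the annotated start are used. Gria2 lies at chr3:80802836-80803085 on the minus strand, Cnih2 at chr19:5098522-5098771 on the minus strand and Cnih3 at chr1:181352378-181352627 on the plus strand. Each is written from 5′ to 3′ on the gene's strand, with capitals for motif matches on either strand. The motifs searched were the GC box GGGCGG and the core of NRF-1 sites, spelled TGCGCA. Basal promoter motifs were the CAAT box, searched as CCAAT, and the TATA box, searched in the form TATAAA. The remaining motifs were the cyclic AMP response element's shorter form TGACG and an E-box, which was spelled CACGTG.
Gria2: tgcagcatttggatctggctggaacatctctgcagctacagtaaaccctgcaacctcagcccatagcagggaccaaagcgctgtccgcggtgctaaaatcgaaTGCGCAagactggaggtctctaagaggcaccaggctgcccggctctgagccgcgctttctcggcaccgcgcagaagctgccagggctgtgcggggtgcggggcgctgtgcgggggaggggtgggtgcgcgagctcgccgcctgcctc
Cnih2: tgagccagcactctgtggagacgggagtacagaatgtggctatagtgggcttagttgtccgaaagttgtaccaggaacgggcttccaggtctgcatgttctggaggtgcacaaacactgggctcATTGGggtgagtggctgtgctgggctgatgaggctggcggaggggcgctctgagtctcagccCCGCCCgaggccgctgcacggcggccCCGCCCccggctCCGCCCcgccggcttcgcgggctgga
Cnih3: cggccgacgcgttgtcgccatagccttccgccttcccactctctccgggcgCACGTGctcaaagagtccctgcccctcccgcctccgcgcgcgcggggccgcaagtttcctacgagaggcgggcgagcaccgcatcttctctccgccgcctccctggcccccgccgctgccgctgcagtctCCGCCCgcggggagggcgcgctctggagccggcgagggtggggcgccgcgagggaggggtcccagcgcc
The Gria2 window held 1 TGCGCA, found in 6.43% of all 32851 windows of that length. The Cnih2 window held 3 GC boxes (32.7% of windows have any) and 1 CAAT box (33.8%). The Cnih3 window held 1 GC box and 1 E-box, the latter in 6.02% of windows. Bases G and C made up 64.8%, 65.6% and 76% of the Gria2, Cnih2 and Cnih3 windows, against a median of 52.4%. No match overlapped another, and the matches are descriptions of letters and not of binding.

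Shisa9 encodes CKAMP44, an auxiliary protein that prolongs receptor desensitisation. Its brightest probe set, of a type that can cross-hybridise, measured 743, 1136 and 1053 on the TRAP arrays and 1976, 2388 and 2420 on the unbound arrays. The groups were well separated, and the difference was 2.34-fold (log2 -1.23, SE 0.19, adjusted p = 0.0032). The second Shisa9 probe set overlapped between groups, at 172, 134 and 198 against 187, 198 and 350, and was not called (log2 -0.50, SE 0.30, adjusted p = 0.19). The third Shisa9 probe set lay between 36.0 and 41.9 on all arrays and was not tested. The probe sets of Shisa9 thus shared a direction with 1 call among them.

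**Figure D3:**
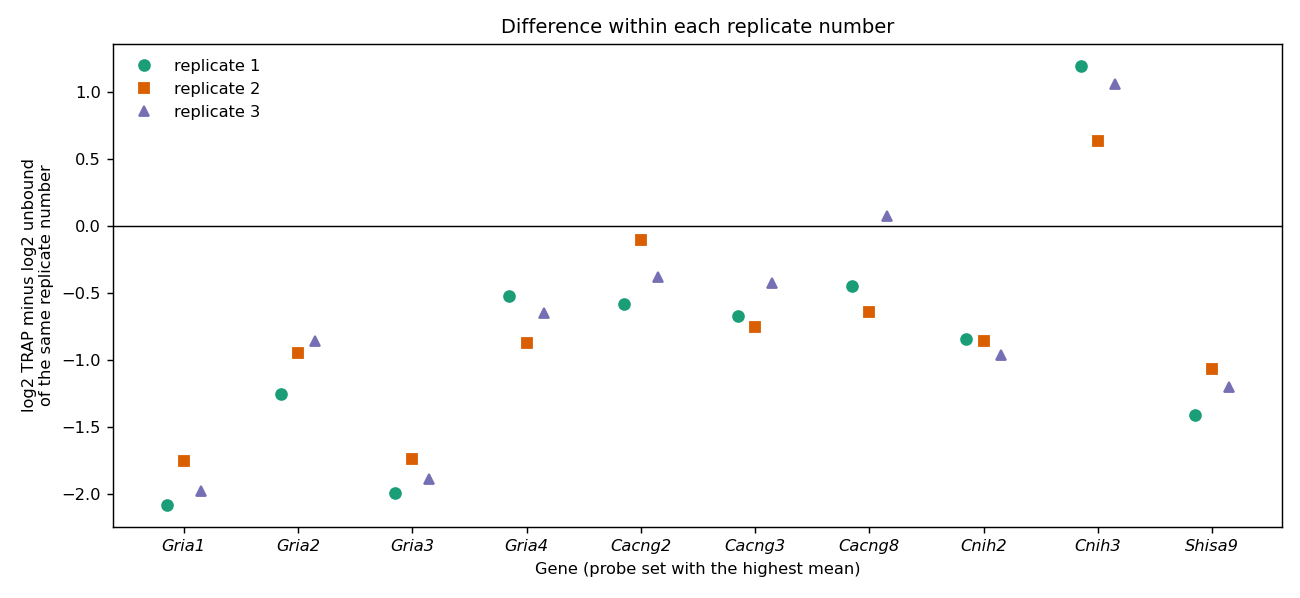
log2 difference between the TRAP and unbound arrays of the same replicate number for the probe set with the highest mean of each gene. The 3 replicate numbers of Cnih3 lie above 0 (0.63 to 1.19), Cacng8 has 1 above 0 (0.07), and every other point lies below 0.

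Relative changes between related members were compared next. The log2 ratio of 2 members within an array is free of a constant scaling factor of that array, but not of intensity-dependent normalisation. Its change between groups was examined for 10 pairs on the brightest probe sets. With 3 arrays against 3, the exact two-sided permutation test cannot go below p = 0.1, so no pair could pass (lowest Benjamini-Hochberg adjusted p = 0.17). The log2 ratio of Cnih2 over Cnih3 changed by -1.85, or 3.61-fold, with 1.15, 1.38 and 0.89 on the unbound arrays and -0.89, -0.10 and -1.13 on the TRAP arrays, and no overlap (exact p = 0.1). Gria1 relative to Gria4 changed by -1.25 and Gria3 relative to Gria4 by -1.19, both without overlap (exact p = 0.1). Over all pairs of their probe sets these changes kept their sign, from -2.64 to -0.96 and from -2.57 to -0.94. Gria1 and Gria3 changed by nearly the same amount, with a ratio change of -0.07 and overlapping groups (exact p = 0.5).

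The position of Gria2 relative to Gria1 and Gria3 differed among its probe sets. The log2 ratio of Gria1 over Gria2 changed by -0.92 and that of Gria2 over Gria3 by 0.85 without overlap (exact p = 0.1 each). Over the 6 pairs of probe sets, however, the Gria1 to Gria2 change ran from -0.92 to 0.93 and the Gria2 to Gria3 change from -0.95 to 0.85, so the order of the subunits depends on the probe set. The brightest Gria2 probe set fell by 1.02 on the log2 scale, less than any of Gria1 or Gria3, and the third fell by 2.57, more than any of them. Gria2 over Gria4 changed by -0.34 without overlap (exact p = 0.1), and over all pairs from -3.27 to -0.34. The ratios among the TARP genes overlapped between groups in each of their 3 pairs, with changes of 0.27 for Cacng2 over Cacng3 (exact p = 0.4), -0.02 for Cacng2 over Cacng8 (exact p = 1) and -0.28 for Cacng3 over Cacng8 (exact p = 0.4). This test does not use the pairing of replicate numbers, and a paired exact test of 3 pairs cannot go below p = 0.25. Within numbers 1, 2 and 3 the change was 0.09, 0.65 and 0.05 for Cacng2 over Cacng3 and -0.23, -0.12 and -0.50 for Cacng3 over Cacng8, of one sign in each. It was -0.14, 0.54 and -0.45 for Cacng2 over Cacng8, and -0.09, -0.02 and -0.09 for Gria1 over Gria3.

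**Figure D4:**
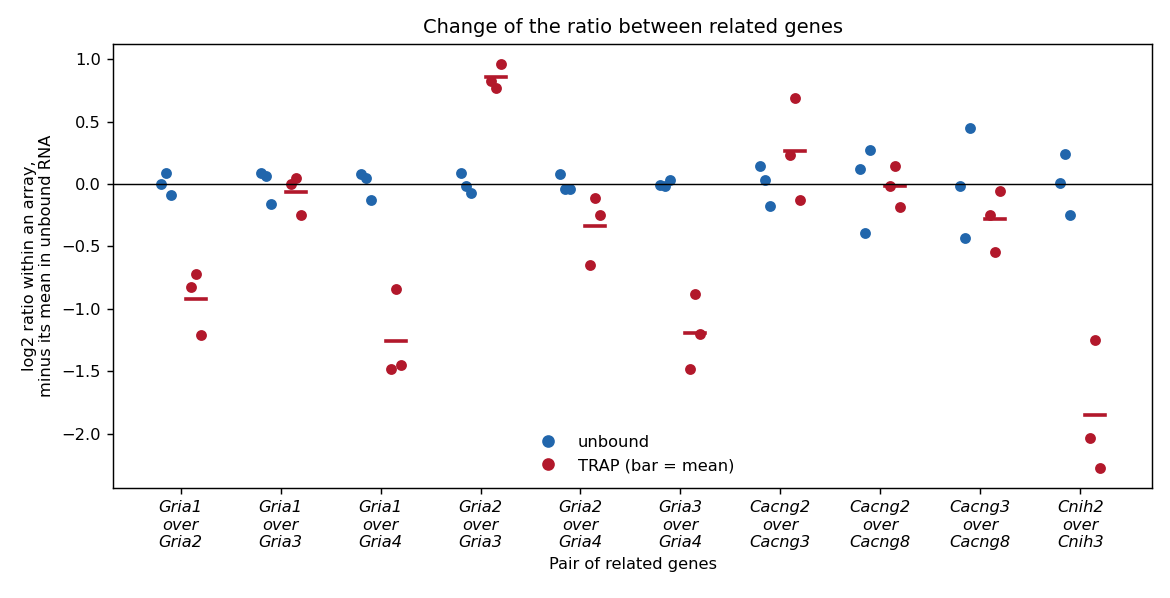
log2 ratio between 2 related genes within each array, minus its mean on the 3 unbound arrays, for 10 pairs, with a bar at the TRAP mean. Cnih2 over Cnih3 and the ratios of Gria1 and Gria3 over Gria4 are below all unbound points, Gria2 over Gria3 is above them, and the TARP pairs overlap.

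Other genes of the AMPA receptor pathway were taken from 6 lists of 79 genes, of which 72 were tested. Of these 46 were lower (45.6% of all genes) and 2 higher (23.2%), with 24 not called, and 11 were at least 2-fold lower (13.3% of all genes), a share of 15.3% that is near the background. After centring on the tested probe sets 33 were lower and 12 higher, and after centring on all probe sets 22 and 19, so the balance of this list depends on scaling.

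Among other auxiliary and complex proteins 6 of 12 were lower (45.6% of all genes) and 1 higher (23.2% of all). The median log2 difference was -0.47, against -0.21 for all genes. After centring on all probe sets 6 were lower and 3 higher (median -0.03). Cacng5, which encodes the TARP gamma-5, measured 24.5, 55.7 and 45.0 in TRAP RNA against 223, 265 and 310, 6.68-fold lower (adjusted p = 0.0014), or 5.09-fold with values under 50 raised to 50. Its TRAP mean of 41.7 was under 50 and it was kept only through the unbound group, so its direction follows from the filter. Cacng4 was 3.16-fold lower (adjusted p = 2.2e-05), Gsg1l, which encodes a receptor-suppressing auxiliary protein, 3.14-fold (adjusted p = 0.0019) and Shisa6, a relative of Shisa9, 2.33-fold (adjusted p = 7.4e-04). These 4 kept their calls under each scaling tried, which for Cacng5 adds nothing about direction. Cnih1, the broadly expressed cornichon, was called higher by 1.18-fold (adjusted p = 0.034). For assembly in the endoplasmic reticulum, 3 of 6 genes were lower (45.6% of all genes), namely Cpt1c (1.38-fold), Frrs1l (1.32-fold) and Sacm1l (1.28-fold). After either centring 0 of the 6 were lower.

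Scaffold genes were lower in 12 of 15 (median -0.65, against 45.6% of all genes lower). After centring on the tested probe sets 10 were lower and 2 higher, and after centring on all probe sets 7 and 2 (median -0.21). The largest differences were in Dlg2, which encodes PSD-93 (2.13-fold, adjusted p = 5.5e-05), Grip2 (2.08-fold), Akap5, an anchor of kinases and phosphatases (1.95-fold), and Grip1 (1.91-fold). Grip1 and Grip2 encode proteins that bind the tails of GluA2 and GluA3. Trafficking genes were lower in 10 of 15 (45.6% of all genes) and higher in 1 (23.2% of all), with a median of -0.34. After centring on the tested probe sets 6 were lower and 3 higher, and after centring on all probe sets 3 and 5 (median 0.10). On the deposited scale the largest differences were the complexin gene Cplx2 at 2.54-fold, the myosin genes Myo5a and Myo5b at 1.87-fold and 1.78-fold, and the dynamin gene Dnm3 at 1.61-fold, all lower. Ap2m1, a subunit of the clathrin adaptor that removes receptors, was the 1 called higher (1.17-fold, adjusted p = 5.9e-04). Arc, an immediate early gene that drives AMPA receptor uptake and was singled out after its values were seen, measured 4491, 1163 and 1233 on TRAP replicates 1, 2 and 3 and 4018, 883 and 1199 on unbound replicates 1, 2 and 3. Replicate 1 was high in both groups, and the groups overlapped (log2 0.20, SE 0.83, adjusted p = 0.84).

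Of 9 genes for pentraxins and adhesion proteins 6 were lower and 0 higher (median -0.70, against 45.6% of all genes lower). The counts were 5 lower and 1 higher with the replicate block, 4 and 2 after centring on the tested probe sets, and 3 and 3 after centring on all probe sets. Nptx1, a secreted pentraxin that clusters AMPA receptors, was 2.87-fold lower (adjusted p = 0.0080), Lrrtm2 2.80-fold, Nlgn3 2.38-fold and Lrrtm3 1.86-fold. Of 15 genes for kinases, phosphatases and editing enzymes 9 were lower (45.6% of all genes) and 0 higher (23.2% of all), with a median of -0.39. After centring on the tested probe sets 7 were lower and 3 higher, and after centring on all probe sets 3 and 5 (median 0.04). Camk2a, the kinase that phosphorylates GluA1, was 2.84-fold lower (adjusted p = 0.0099), Camk2d 1.87-fold, Adarb1, the enzyme that edits the GluA2 pore codon, 1.78-fold and Prkca 1.66-fold.

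**Figure D5:**
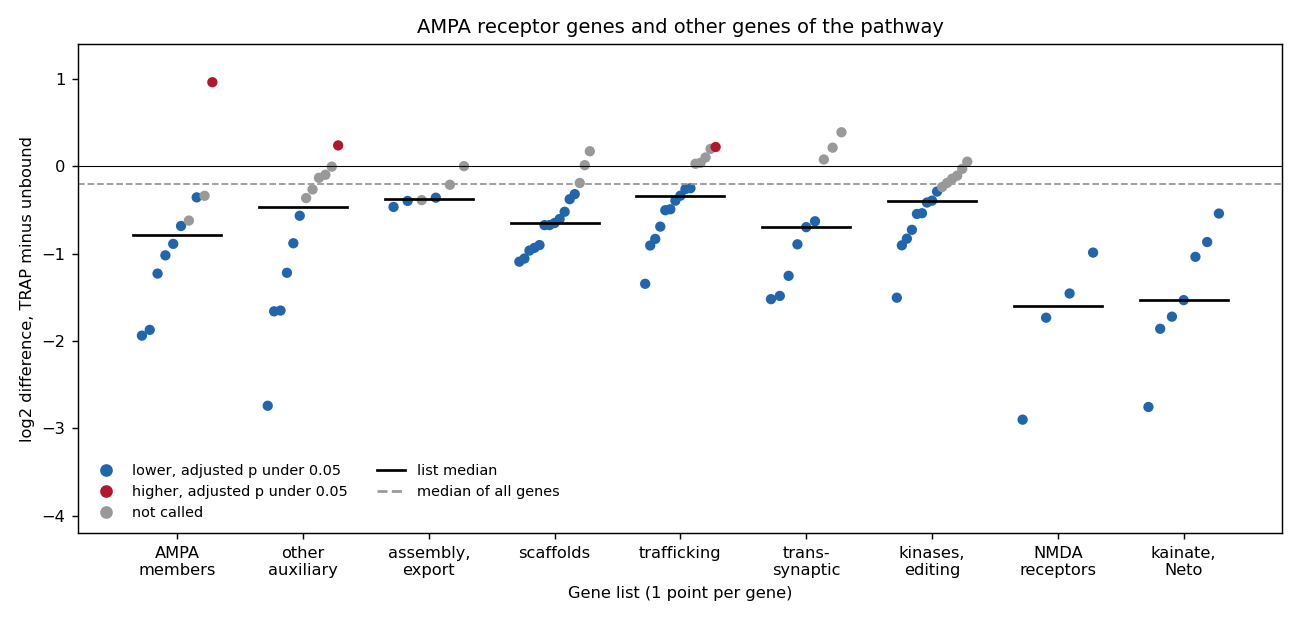
log2 difference (TRAP minus unbound) for the probe set with the highest mean of each tested gene in the AMPA receptor list, 6 pathway lists and 2 other glutamate receptor lists, with list medians as bars and the median of all genes (-0.21) dashed. Cnih3 is the highest point, and all tested NMDA and kainate genes lie below 0.

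The other ionotropic glutamate receptor genes that were tested were lower too. NMDA receptor subunits were lower in 4 of 4 tested genes (median -1.59, against 45.6% of all genes lower). Grin2c was 7.46-fold lower, or 3.60-fold with values under 50 raised to 50, and Grin2d 1.98-fold, or 1.73-fold with raised values. Grin3a was 3.32-fold and Grin2b 2.74-fold lower. Grin2c and Grin2d had TRAP means of 26.8 and 43.7 and were kept only through the unbound group, so their direction follows from the filter. Grin2a and Grin3b were too dim to be tested, and Grin1 had no probe set with a single symbol. Kainate receptor and Neto genes were lower in 7 of 7 (median -1.53, against 45.6% of all genes lower). Of the 7, 5 were at least 2-fold lower (13.3% of all genes). Neto2 was 6.75-fold, Grik3 3.63-fold, Grik2 3.30-fold and Grik4 2.89-fold lower. After centring on all probe sets 5 of the 7 were called lower. The AMPA receptor list had a median of -0.79, and the difference between these lists was not tested.

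Markers of other cells moved with the groups. Their counts stand beside 45.6% of all genes lower and 23.2% higher. Summed intensity of 13 pyramidal neuron markers overlapped on the deposited scale, from 21463 to 22193 on TRAP arrays and from 21432 to 23645 on unbound arrays, with 5 higher and 5 lower. After centring on the tested probe sets 6 were higher and 3 lower, and after centring on all probe sets 7 and 3 (median 0.35). Summed interneuron markers (15 genes, 13 lower) were 17575 to 22001 against 46077 to 47777, with Gad1 2.19-fold and Pvalb 6.89-fold lower. Sst and Npy were not called and overlapped between groups, with log2 differences of 0.23 and 0.19. After centring on all probe sets 13 interneuron markers were lower and 2 higher. Summed oligodendrocyte markers (11 genes, 10 lower) were 9264 to 14934 against 54102 to 60065, and precursor markers (7 genes, 6 lower) 1532 to 1985 against 7155 to 8231. Astrocyte markers (12 genes, 7 lower and 3 higher) were 20868 to 25155 against 32027 to 41775, microglial markers (9 genes, 8 lower) 546 to 794 against 1694 to 2246, and striatal neuron markers (8 genes, 7 lower) 5532 to 6828 against 14677 to 15247. Meningeal fibroblast markers (11 genes, 11 higher) were 70128 to 73716 against 7628 to 11170, mural cell markers (8 genes, 5 higher and 2 lower) 5904 to 7370 against 2894 to 3198, and endothelial markers (4 genes, 2 higher and 2 lower) 4149 to 4517 against 778 to 869. The endothelial sum was mostly Itm2a (mean 4088 against 467), while Cldn5 (53.1 against 68.6) and Slco1c1 (42.0 against 253) were lower on the deposited scale. Drd2, Pdyn, Dlx5, Myrf and Slco1c1 were among the markers with a TRAP mean under 50, kept only through the unbound group. The direction of such markers follows from the filter. With values under 50 raised to 50 the microglial median log2 difference went from -2.050 to -1.015. The striatal median went from -1.71 to -1.27 and the meningeal one from 4.94 to 4.59. The part of these cell types in the AMPA receptor differences was not tested. The ratio of the 3′ to the 5′ control probe set, a measure of amplified length, overlapped between groups for Gapdh (2.86 to 3.15 against 2.75 to 3.30) and Actb (3.86 to 4.99 against 4.18 to 4.58).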

How the data were processed

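RNA from TRAP and unbound samples (15 ng each) was amplified with a 2-cycle kit and hybridised to arrays, per the labels' protocols. The deposited intensity values are linear and were made by the authors with GCRMA, per the submitters' processing notes; its version, and whether all arrays were summarised together, were not given. Its background step compresses low values, and median polish can give arrays identical values. The array's probe annotation paired 34958 probe sets with 1 symbol, and 34754 of these were found in RefSeq through their Entrez ID. No coordinates of array features were used.

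Values were log2 transformed without a pseudocount. Non-control probe sets with a mean of at least 50 in 1 group or both were kept (22591), and the groups were compared by limma (version 3.58.1, under R 4.3.3, with lmFit and eBayes; group only, two-sided, Benjamini-Hochberg over all 22591), after the code was tested on simulated data. Unless named otherwise, an adjusted p is from this fit, and intervals are 95% limma intervals. Each gene's main probe set is the one with the highest mean. Ratios of members were compared by an exact permutation test. Alternatives were other filters, scalings, a trend prior, a replicate block and leaving out each array.

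The members and gene lists were chosen with earlier results of these data known. All members and S100a10 are named, with up to 4 called genes of each pathway list by size of difference, and marker lists are summed; Arc, and further genes named in counts of 5 or fewer or as markers, were chosen after values were seen. Same-numbered TRAP and unbound arrays deviated together from their group means across probe sets (correlations 0.42, 0.45 and 0.37 for numbers 1, 2 and 3, against -0.31 to -0.10 for unlike numbers). Deviations from a group mean cancel within the group, so the negative values follow in part from the positive ones. The numbers were taken to pair the samples, which the replicate block uses and the main fit does not.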

Additional observations from a re-analysis of the deposited data

How the results depend on the processing

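The 7 probe sets of Gria1, Gria2 and Gria3 and that of Cnih2 stayed lower and called in every filter, scaling, block and leave-one-out fit that kept them. In the test against a 2-fold change 5 of the 7 kept their call, and the Cnih2 probe set did not. The count of member probe sets called lower was 12, and 11 to 12 without one array. It was 9 with median centring on all probe sets, and 10 with centring on kept probe sets and with quantile normalisation. It was 9 of 13 without repeated values, 5 in the test against a 2-fold change and 7 of 10 with 1 probe set per gene. The count called higher was 1, and 0 to 2 without one array; it was 3 with median centring on all probe sets, 2 with centring on kept probe sets and with quantile normalisation, and 0 with values under 50 raised to 50 and in the test against a 2-fold change. With values raised, Cnih3 had an adjusted p of 0.0501. Under the replicate block 12 member probe sets were lower and 1 higher; among the brightest probe sets of the members it ended the call of Cacng2 and added that of Cacng3, and it changed no other call.

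Pathway genes called lower numbered 46 (40 to 47 without one array), 22 with median centring, 20 of 39 without repeated values and 3 in the test against a 2-fold change. Those higher numbered 2 (1 to 3 without one array), 19 with median centring, 12 with centring on kept probe sets, 7 with quantile normalisation, and 0 without repeated values and in the test against a 2-fold change.

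Over the array 10767 probe sets were lower and 4663 higher. The counts were 22216 and 11073 with no filter, 5712 and 9928 with median centring, 5517 and 2812 with 1 probe set per gene, 4065 and 1855 without repeated values, and 2144 and 863 in the test against a 2-fold change. Higher counts were 7086 with quantile normalisation and 7649 with centring on kept probe sets. Centring on kept probe sets was chosen after seeing the data. Filters and 1 probe set per gene change how many are tested; for the others the cause was not tested.

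Among the brightest probe set of each member and the 10 pairs, direction turned in 7 cases, given here; turns of other Cacng2 probe sets and of pathway lists stand beside those results. The median of the 2 Gria4 probe sets was 0.0084. Median centring gave 0.081 for Cacng2 and 0.10 for Cacng8. Over other probe sets the ratio change reached 0.93 for Gria1 over Gria2, 0.23 for Gria1 over Gria3 and 0.27 for Cacng2 over Cacng8, and fell to -0.95 for Gria2 over Gria3. Dim signals limit Cacng8 and the third Gria2 probe set.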
